A study of Mus musculus with 4 samples.

Results

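The genes described here make ribosomes. They are 40 genes chosen by name for their known roles: subunits and factors of RNA polymerase I, proteins of the nucleolus, and the assembly factors of both ribosomal subunits. All 40 were found among the 23756 genes of the deposited table, and all 40 passed the filter on low counts, so no member was lost. RNA-seq libraries came from 32Dcl3-Abl1ko cells. The parental 32Dcl3 line is a mouse blood cell line that dies without interleukin-3 (IL-3), and CRISPR/Cas9 was used to knock out its Abl1. In the Abl1ko/IL3+ group (2 libraries) the cells were kept with IL-3, and in the Abl1ko/IL3- group (2 libraries) they were cells that had become able to grow after IL-3 was withdrawn. Both groups carry the Abl1 edit, and cells with intact Abl1 were not analysed here. The edited cells derive from single clones or guide populations that the sources do not tie to the libraries, so p-values measure the spread between these libraries, which may be clonal or technical.

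Ribosome production begins in the nucleolus, where RNA polymerase I, placed on the ribosomal DNA by Ubtf, the SL1 complex and Rrn3, transcribes 1 long precursor RNA. Small nucleolar ribonucleoproteins (snoRNPs) then modify the precursor, box C/D particles by methylation and box H/ACA particles by pseudouridylation, and large assemblies cut and fold it into the small and the large subunit. In growing blood cells this program follows growth factor signaling through mTOR and MYC, and MYC binds an E box, CACGTG, near many of its genes. The ribosomal RNA itself was depleted from these libraries, so the product of RNA polymerase I was not measured.

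The E box was therefore looked for in the promoters of the members, taken from RefSeq (GRCm38.p6) as windows of 300 bases, 250 before and 50 after each annotated start. CACGTG reads the same on both strands, and no other motif was searched. Promoters were matched for 36 members (Bop1, Fbl, Npm1 and Rrp12 were not matched), and 8 of the 36 (22.2%) held the motif in at least 1 window, against 8.09% of the 27025 genes with a promoter in that table. Some genes have several windows. The sites below are those of the RNA polymerase I factor Rrn3, of the members with the largest falls that carry the motif (Mybbp1a and Tsr1), of Ltv1, which was higher in both libraries without IL-3, and of Pes1, whose site lies at the start. Capitals mark the E box.
Rrn3, 215 bases upstream of the start, chr16:13780472-13780501, plus strand: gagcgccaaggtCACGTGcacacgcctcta
Rrn3, 48 bases upstream of the start, chr16:13780639-13780668, plus strand: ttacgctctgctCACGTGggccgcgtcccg
Pes1, from base 3 after the start, chr11:3963965-3963994, plus strand: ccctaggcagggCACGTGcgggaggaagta
Mybbp1a, from base 41 after the start, chr11:72441347-72441376, plus strand: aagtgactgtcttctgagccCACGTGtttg
Tsr1, from base 25 after the start, chr11:74898092-74898121, plus strand: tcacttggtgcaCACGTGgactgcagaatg
Ltv1, from base 29 after the start, chr10:13193092-13193121, minus strand: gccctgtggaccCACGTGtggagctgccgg
Nop2, Utp20 and Wdr43 also held the motif. The median log2 fold change of Abl1ko/IL3- over Abl1ko/IL3+ cells was -0.11 over the 8 members with the motif, 5 of them below 0, and -0.17 over the 28 without it. A match of letters is a description and not a binding site.

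The libraries held between 48953174 and 60382588 counts. Levels are given as CPM, counts divided by the library's total after TMM, a correction for library composition. Levels of different members are compared only as FPKM, which divides by gene length. Marker levels and sums are in CPM, which does not correct for gene length. Counts of the edited gene, Abl1, were 1322 and 2222 in the Abl1ko/IL3+ libraries against 1544 and 2256 in the Abl1ko/IL3- libraries. The labels call the cells pre-B cells. However, 5 pre-B markers (Cd79a, Cd79b, Vpreb1, Igll1 and Rag1) summed to 18.4 to 26.01 CPM, with Rag1 at 0 to 4 counts. The 7 myeloid progenitor markers were Mpo, Ms4a3, Cebpe, Ctsg, Prtn3, Elane and Csf3r. They summed to 2924 and 2729 CPM in the Abl1ko/IL3+ libraries against 1845 and 1434 CPM in the Abl1ko/IL3- libraries. Mpo and Ms4a3 were the highest of them in every library. Elane had 2.24 to 5.59 CPM and Csf3r 0 to 0.775 CPM, below the pre-B marker Cd79b at 11.2 to 16.2 CPM. The share of counts from mitochondrial genes was 2.55% and 1.28% with IL-3, against 4.01% and 3.31% without it. The myeloid marker sum and the mitochondrial share separated the groups. Of the 7 myeloid markers only Mpo did so alone, at 1879 and 1477 CPM with IL-3 against 908 and 499 CPM without it. The others overlapped between the groups. The part of both measures in the members' values was not tested. The libraries of each group differed in markers of other blood lineages. The 4 erythroid markers (Hba-a1, Hbb-bs, Klf1 and Epor) summed to 185 and 7053 CPM in Abl1ko/IL3+ replicates 1 and 2, and to 3448 and 1674 CPM in Abl1ko/IL3- replicates 1 and 2. The 7 neutrophil markers were highest in Abl1ko/IL3- replicate 2. They summed to 804 and 294 CPM with IL-3 and to 944 and 5364 CPM without it, so this sum also separated the groups. S100a8, S100a9, Ltf, Ly6g and Camp each did so alone, with S100a9 at 7.14 and 1.64 CPM against 141 and 370 CPM. Lcn2 and Ngp overlapped between the groups. The part of the neutrophil markers in the members' values was not tested. The sum of the 6 mast cell and basophil markers was highest in Abl1ko/IL3+ replicate 1, at 748 CPM against 116 to 240 CPM. Of these, Cpa3, Fcer1a and Gata2 were highest in that library, Mcpt8 and Ms4a2 were lowest in it, and Kit had 0 to 4 counts throughout. In such bulk RNA a smaller number of cells of a type and less RNA per cell cannot be told apart. The spans of 14 members overlap a protein-coding gene on the other strand, among them those of Mybbp1a, Gnl3, Nop56, Tsr1, Noc2l and Rrp1b, and whether reads were counted by strand is not given in the sources used here.

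No ribosome biogenesis gene changed past the threshold between Abl1ko/IL3- and Abl1ko/IL3+ cells. An adjusted p-value under 0.05 was reached by 0 of 40 members, as by 0 of the 16535 genes tested (0%), in the quasi-likelihood test of edgeR (Benjamini-Hochberg adjustment), and the lowest adjusted p of a member was 0.854. Before adjustment, 0 of 40 members had a p-value under 0.05, against 978 genes, or 5.91%, of all those tested. With DESeq2, which called 271 genes (1.64%), 0 of 40 members were called and 0 had an unadjusted p under 0.05, against 8.28% of all genes. The fitted log2 fold changes ran from -0.96 to 0.73, with 29 members lower and 11 higher without IL-3 and a median of -0.17, where the median of all genes tested was -0.027. Both Abl1ko/IL3- libraries lay below both Abl1ko/IL3+ libraries for 10 members (25%, against 17.9% of all genes tested), and above them for 2 members (5%, against 19.4%). The 10 were Polr1a, Polr1e, Mybbp1a, Dkc1, Nop14, Tsr1, Ddx18, Ddx21, Pes1 and Rrp1b, and the 2 were Ltv1 and Rrp12. The standard errors ran from 0.30 to 0.71 on the log2 scale, and the 95% intervals of all 40 members contain 0. Over the members their lower ends had a median of -1.18 and their upper ends one of 0.83. For a typical member, no change and changes anywhere between about these values were thus compatible with the data.

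**Figure D1:**
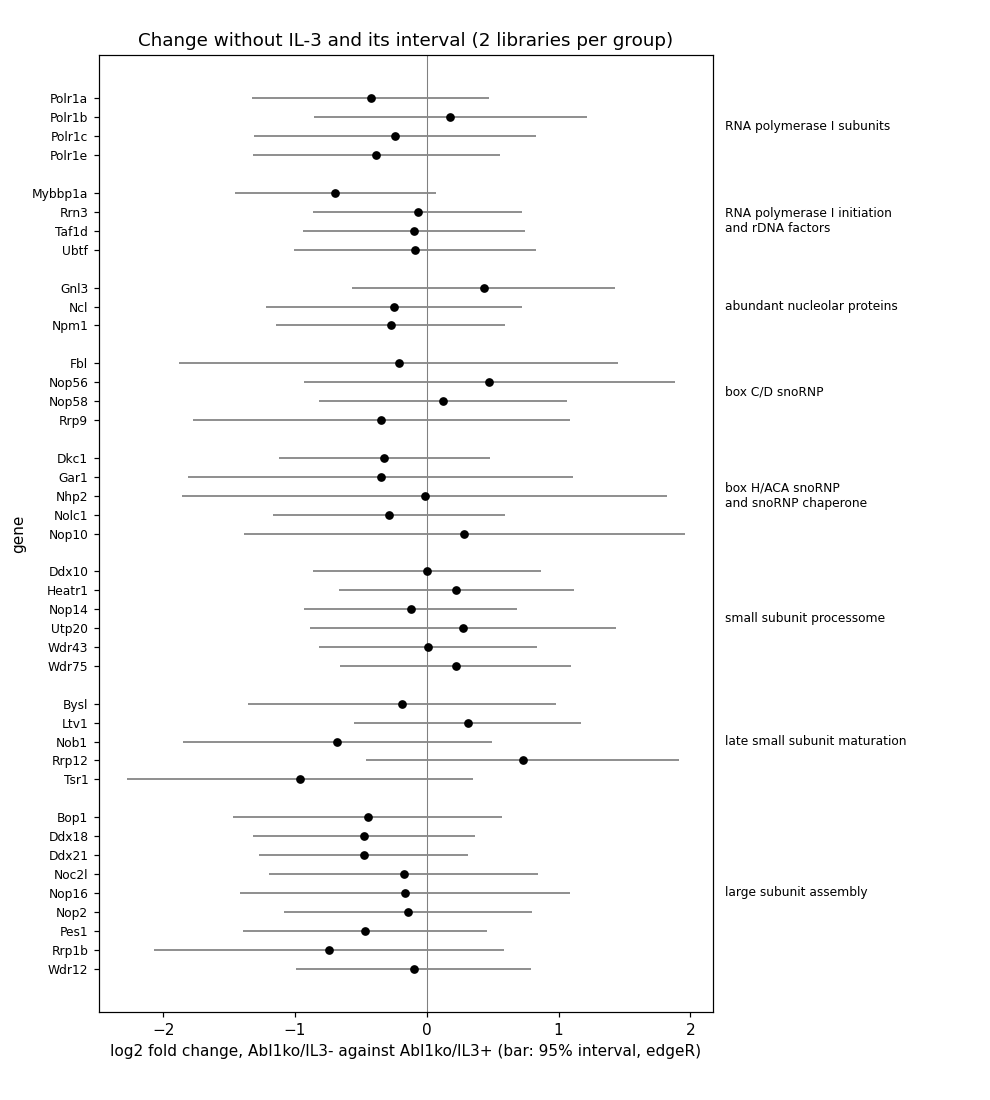
Log2 fold change of each member in Abl1ko/IL3- against Abl1ko/IL3+ cells (x axis, points) with its 95% interval from edgeR (bars, 2 libraries per group), grouped by role. Every bar crosses 0, and the narrowest miss is Mybbp1a, whose interval ends at 0.072.

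Within each group, most members differed between the replicates in a shared direction. Of the 40 members, 34 were higher in Abl1ko/IL3+ replicate 2 than in replicate 1, against 48.2% of all genes tested, and 35 were lower in Abl1ko/IL3- replicate 2 than in replicate 1, against 49% of all genes tested. On the log2(CPM + 1) scale, the difference between the Abl1ko/IL3+ replicates was larger than that between the group means for 29 of 40 members. This share of 72.5% was near the 65.7% of all genes tested. The difference between the Abl1ko/IL3- replicates was larger for 28 members (70.0%, against 46.8% of all genes tested). A difference between single libraries varies more than one between means of 2, so these shares are read only beside those of all genes. The highest library was Abl1ko/IL3+ replicate 2 for 23 members, Abl1ko/IL3- replicate 1 for 12, Abl1ko/IL3+ replicate 1 for 5 and Abl1ko/IL3- replicate 2 for 0, against 28.3%, 23.1%, 31.8% and 16.8% of all genes tested. Summed over the 40 members, the level was 3562 and 5478 CPM with IL-3 and 4464 and 3641 CPM without it, so both libraries without IL-3 lay between the 2 libraries with it.

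The direction of the group difference turned without 1 library. Without Abl1ko/IL3+ replicate 2, 24 members were higher and 16 lower in Abl1ko/IL3- cells, and 4 of 40 had an unadjusted p under 0.05 (Nhp2, Nop10 and Rrp12 higher, Tsr1 lower), against 16.9% of all genes in the same fit. Without Abl1ko/IL3+ replicate 1, 7 were higher and 33 lower, and 2 of 40 had an unadjusted p under 0.05 (Mybbp1a and Pes1, both lower), against 15%. No member was called after adjustment in either fit (edgeR). Without Abl1ko/IL3- replicate 1, 22 genes (0.124%) were called after adjustment and 3.23% had an unadjusted p under 0.05, and without Abl1ko/IL3- replicate 2 this was 1 gene (0.00568%) and 4.37%, with 0 of 40 members among them in every case (edgeR).

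**Figure D2:**
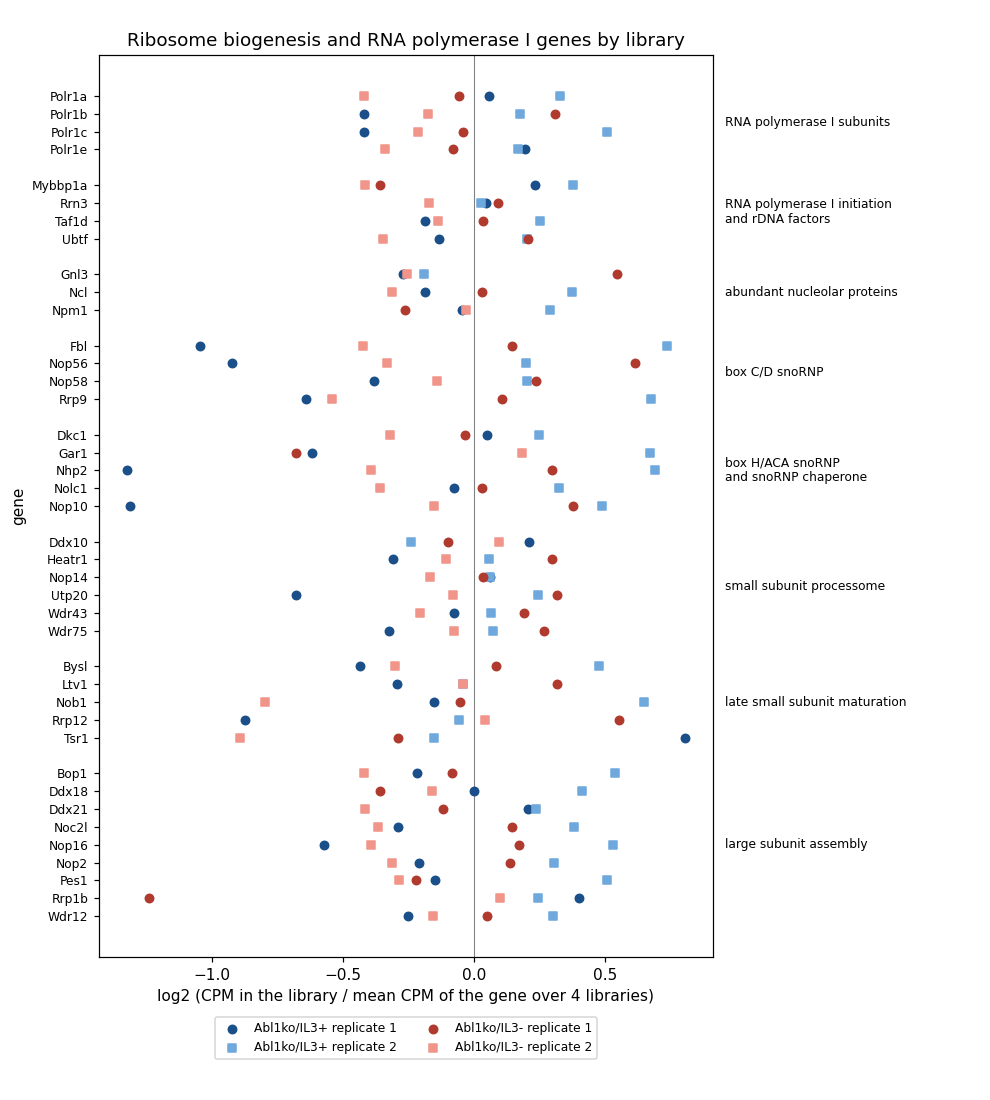
Level of each member in the 4 libraries, as log2 of its CPM over the gene's mean (x axis), by role. The light blue squares (Abl1ko/IL3+ replicate 2) are the highest for 23 of 40 genes, and the dark blue circles (Abl1ko/IL3+ replicate 1) are the lowest for 18.

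RNA polymerase I subunits were expressed at low to moderate levels, with mean FPKM values from 2.29 for Polr1a, the largest catalytic subunit, to 24.7 for Polr1c, which RNA polymerase III shares. Polr1c (ENSMUSG00000067148, chr17:46243920-46248054, minus strand, GRCm38) had 48.3 and 91.7 CPM with IL-3, and 62.8 and 55.8 CPM without it. Both values without IL-3 lay between the values with it, and the log2 fold change was -0.24 (standard error 0.42, adjusted p = 0.974, edgeR). Polr1a had 32.2 and 38.8 CPM with IL-3, and 29.7 and 23.1 CPM without it, so its groups did not overlap. The same held for Polr1e, a subunit of the initiating form of the enzyme, with 19.9 and 19.5 CPM against 16.5 and 13.7 CPM. Polr1b, the second largest subunit, did overlap, at 22.1 and 33.3 CPM against 36.5 and 26.1 CPM. The subunits thus gave 3 fitted values below 0 and 1 above it, and 0 of 4 passed an unadjusted p of 0.05.

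Of the factors that act on ribosomal DNA, Ubtf, which binds it along its length and keeps it open, had the highest mean level (18.7 FPKM). Ubtf (ENSMUSG00000020923, chr11:102304560-102319096, minus strand) had 126.9 and 160.4 CPM with IL-3, and 160.5 and 109.6 CPM without it. Its groups overlapped fully, with a log2 fold change of -0.089 (95% interval -1.01 to 0.83, adjusted p = 0.991, edgeR). Rrn3, which brings the polymerase to the promoter and is a known target of growth signaling, was among the steadiest members, at 49.4 and 48.8 CPM with IL-3 and 51.1 and 42.6 CPM without it. Taf1d, of the SL1 complex, had 61.6 and 83.4 CPM against 71.8 and 63.8 CPM.

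Mybbp1a stood apart from these. It encodes a nucleolar protein that binds MYB and is known to hold back ribosomal RNA synthesis. Mybbp1a (ENSMUSG00000040463, chr11:72441355-72451768, plus strand) had 87.7 and 97.1 CPM with IL-3, and 58.2 and 56.0 CPM without it. The replicates of each group lay close together and the groups did not overlap. The log2 fold change was -0.69 (standard error 0.30, 95% interval -1.46 to 0.072), with the lowest unadjusted p of the 40 members, 0.0673, and an adjusted p of 0.854 in edgeR's quasi-likelihood test. Leaving out each library in turn, the log2 fold change stayed between -0.75 and -0.61.

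The abundant nucleolar proteins include 2 of the 4 members with the highest levels per length. Npm1, the chaperone that shapes the granular part of the nucleolus, had the highest mean level of all members (209 FPKM), and Ncl, the major nucleolar RNA-binding protein, reached 65.5 FPKM. Npm1 (ENSMUSG00000057113, chr11:33152287-33163206, minus strand) had 612 and 772 CPM with IL-3, and 526 and 618 CPM without it. One value without IL-3 lay below both values with it and the other between them, and the log2 fold change was -0.27 (95% interval -1.14 to 0.59, adjusted p = 0.955, edgeR). It was -0.093 without Abl1ko/IL3+ replicate 2 and -0.42 without Abl1ko/IL3+ replicate 1. Ncl had 669 and 988 CPM against 778 and 614 CPM. Gnl3, also called nucleostemin, a GTPase of stem and cycling cells, had 74.4 and 78.6 CPM with IL-3, and 131 and 75.2 CPM without it. Its higher mean without IL-3 came from Abl1ko/IL3- replicate 1 alone: the log2 fold change of Gnl3 (ENSMUSG00000042354, chr14:31012433-31019152, minus strand) was 0.43 (standard error 0.39, adjusted p = 0.931, edgeR), and -0.023 without that library.

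The snoRNP proteins differed most between the replicates kept with IL-3. Over the box C/D proteins the median ratio of Abl1ko/IL3+ replicate 2 to replicate 1 was 2.33, over the box H/ACA proteins and Nolc1 it was 2.44, and over all 40 members 1.39. Fbl, the methyltransferase of the box C/D particle (ENSMUSG00000046865, chr7:28169710-28179269, plus strand), had 104 and 355 CPM with IL-3, and 236 and 159 CPM without it. Both values without IL-3 lay inside the range of the values with it, and the log2 fold change of -0.21 had a 95% interval from -1.88 to 1.45 (adjusted p = 0.987, edgeR). Nop56, a core protein of the same particle (ENSMUSG00000027405, chr2:130274430-130279313, plus strand), had 73.3 and 159.5 CPM with IL-3, and 212.9 and 110.6 CPM without it. Its log2 fold change was 0.47 (standard error 0.55, adjusted p = 0.949, edgeR), and -0.073 without Abl1ko/IL3- replicate 1. A pseudogene copy of Nop56 is counted as a row of its own. So are copies of Polr1c (35 to 115 counts) and Ddx18 (23 to 69 counts). The values of these members are uncertain to the extent that reads were split. Nop58, the partner of Nop56, had 115 and 173 CPM against 177 and 136 CPM, and Rrp9, a protein of the snoRNP that guides the first cuts, had 21.998 and 54.7 CPM against 36.9 and 23.5 CPM.

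Of the 40 genes, the box H/ACA proteins Nhp2 and Nop10 differed most between the replicates kept with IL-3. Nop10, the smallest core protein of that particle (ENSMUSG00000027133, chr2:112261926-112263269, plus strand), had 81.3 and 283 CPM with IL-3, and 262 and 181 CPM without it. Abl1ko/IL3+ replicate 1 lay below the other three libraries. The log2 fold change of Nop10 was 0.29 (95% interval -1.39 to 1.96, adjusted p = 0.980, edgeR), and it was 1.45 without Abl1ko/IL3+ replicate 2 and -0.34 without Abl1ko/IL3+ replicate 1. Nhp2, which binds the guide RNA, had 64.7 and 261 CPM against 199 and 123 CPM, a ratio of 4.03 between the replicates with IL-3, the largest among the members. Gar1 had 34.5 and 84.2 CPM against 33.1 and 60.04 CPM, and was high in both libraries numbered 2. Dkc1, the pseudouridine synthase itself and the gene mutated in X-linked dyskeratosis congenita, varied less, with 70.9 and 81.3 CPM against 66.9 and 54.9 CPM. Nolc1, a chaperone of snoRNPs, had 54.7 and 72.3 CPM against 59.1 and 45.1 CPM.

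**Figure D3:**
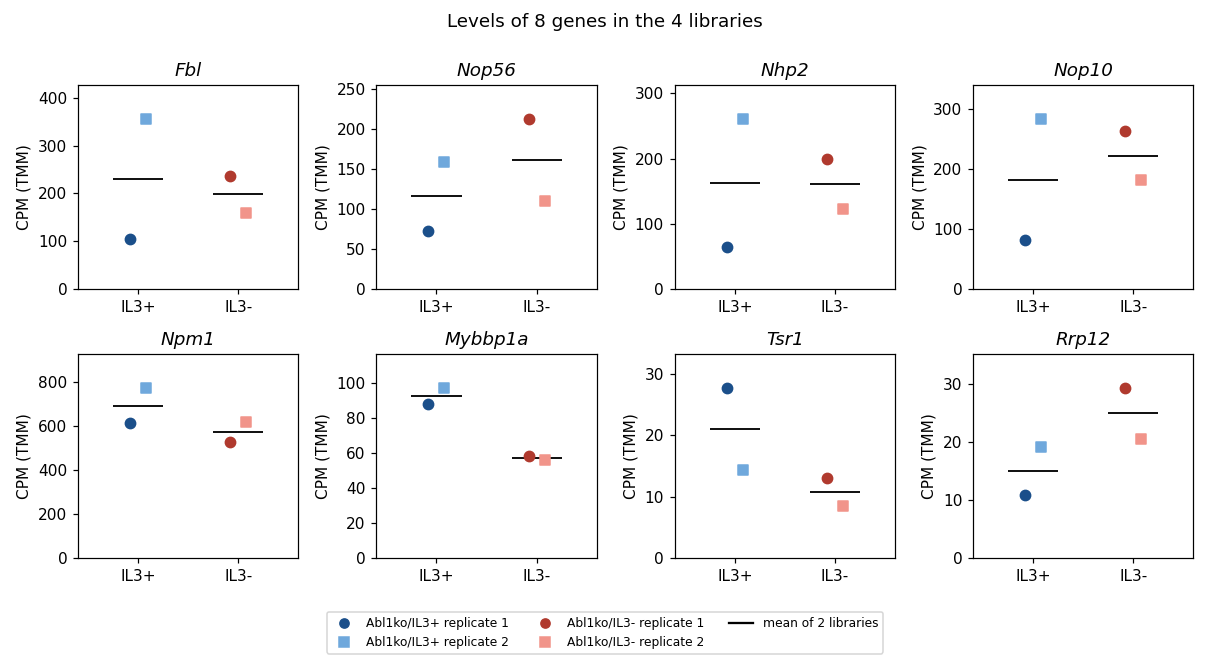
CPM of 8 members (y axes start at 0) in Abl1ko/IL3+ and Abl1ko/IL3- libraries, with circles for replicate 1, squares for replicate 2 and a line at the mean of each group. Fbl, Nop56, Nhp2 and Nop10 spread widely with IL-3, while Mybbp1a has tight replicates and groups that do not overlap.

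The order of the libraries recurred. For 9 members (22.5%, against 10.1% of all genes tested) the level was highest in Abl1ko/IL3+ replicate 2, then in Abl1ko/IL3- replicate 1, then in Abl1ko/IL3- replicate 2, and lowest in Abl1ko/IL3+ replicate 1. These were Polr1c, Taf1d, Fbl, Rrp9, Nhp2, Nop10, Bysl, Nop16 and Wdr12. Of the 90 further ribosome biogenesis genes described below, 24 had this order too. The summed erythroid markers had the same order (7053, 3448, 1674 and 185 CPM). Their part in these values was not tested.

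Gene length moved with the difference between the replicates kept with IL-3. Across the 40 members the Spearman correlation between exon length and the log2 ratio of Abl1ko/IL3+ replicate 2 to replicate 1 was -0.32, and across all 16535 genes tested it was -0.31. For the Abl1ko/IL3- replicates it was 0.012 and 0.025. Genes share their libraries, so these correlations only describe them. In the 10 shortest members (exon lengths of 1109 to 2772 bases) the median ratio of Abl1ko/IL3+ replicate 2 to replicate 1 was 1.66, and in the 10 longest (6101 to 11955 bases) it was 1.32. The shortest members, Nop10 (1109 bases) and Nhp2 (1146 bases), had ratios of 3.48 and 4.03, but Fbl, with 4209 bases, had a ratio of 3.43 and Npm1, with 2665 bases, of 1.26. The part of gene length in these ratios was not tested.

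**Figure D4:**
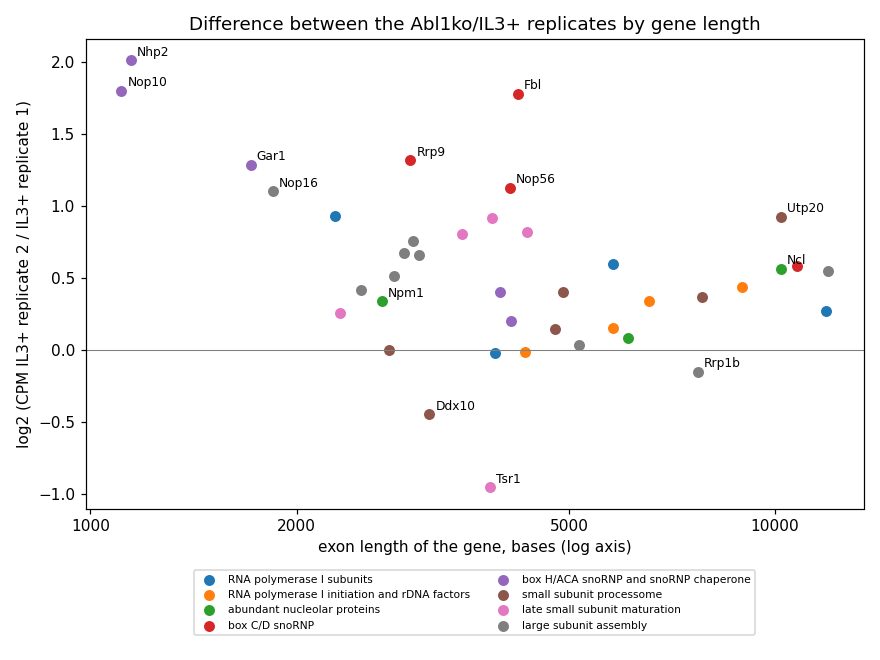
Log2 ratio of CPM in Abl1ko/IL3+ replicate 2 over replicate 1 (y axis) against the exon length of each member in bases (x axis, log scale), coloured by role. Nhp2 and Nop10, the shortest genes, and Fbl, at 4209 bases, are the highest points, and Tsr1 is the lowest.

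The small subunit processome, the assembly that makes the first cuts in the precursor, had the narrowest range of log2 fold changes among the roles. Its 6 members had fitted log2 fold changes from -0.12 to 0.28, with 4 higher and 2 lower without IL-3 and a median of 0.11. Wdr43, an RNA-binding scaffold of the processome (ENSMUSG00000041057, chr17:71615895-71659031, plus strand), had 77.2 and 85.3 CPM with IL-3, and 92.9 and 70.6 CPM without it. The means of the groups were almost equal, with a log2 fold change of 0.0089 (95% interval -0.82 to 0.83, adjusted p = 0.999, edgeR). Nop14 was similarly flat, at 37.8 and 37.7 CPM against 37.1 and 32.2 CPM. Utp20, Heatr1 and Wdr75, large scaffold proteins of this assembly, were each highest in Abl1ko/IL3- replicate 1 and lowest in Abl1ko/IL3+ replicate 1, with Utp20 at 18.8 and 35.7 CPM against 37.5 and 28.5 CPM. The helicase Ddx10 ran the other way, at 50.5 and 37.0 CPM against 40.8 and 46.7 CPM.

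The factors of late small subunit maturation held both ends of the range. Rrp12, needed for export of the precursor particles (ENSMUSG00000035049, chr19:41862851-41896173, minus strand), had 10.9 and 19.2 CPM with IL-3, and 29.3 and 20.5 CPM without it. The groups did not overlap, but the nearest values were close, and the log2 fold change of 0.73 was the highest of the 40 (standard error 0.46, adjusted p = 0.895, edgeR). It was 0.39 without Abl1ko/IL3+ replicate 1 and 1.196 without Abl1ko/IL3+ replicate 2. Tsr1, a GTPase-like factor that blocks premature joining of the subunits (ENSMUSG00000038335, chr11:74898071-74909342, plus strand), had 27.7 and 14.3 CPM with IL-3, and 12.996 and 8.55 CPM without it. Abl1ko/IL3+ replicate 1 carried most of the difference. The log2 fold change of Tsr1 was -0.96, the lowest of the 40 (standard error 0.51, 95% interval -2.28 to 0.35, adjusted p = 0.870, edgeR), and -0.39 without Abl1ko/IL3+ replicate 1.

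Ltv1, which must leave the particle before it can function, was the other member higher in both libraries without IL-3. Ltv1 (ENSMUSG00000019814, chr10:13178140-13193168, minus strand) had 31.6 and 37.6 CPM with IL-3, and 48.2 and 37.7 CPM without it, so that the groups were parted by less than 0.1 CPM. Its log2 fold change was 0.31 (standard error 0.33, adjusted p = 0.942, edgeR), and it ran from 0.12 to 0.48 when single libraries were left out, with the lowest value without Abl1ko/IL3- replicate 1. Nob1, the endonuclease of the last cut, had 48.5 and 84.5 CPM against 52.0 and 31.1 CPM, and Bysl had 18.8 and 35.4 CPM against 26.9 and 20.6 CPM.

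All 9 members of large subunit assembly had a log2 fold change below 0, as had all 4 factors of initiation and ribosomal DNA. Of all 16535 genes tested, 8589 were below 0. Among the initiation factors, Rrn3, Ubtf and Taf1d were only at -0.069, -0.089 and -0.096. Without Abl1ko/IL3+ replicate 2 the value was 0.20 for Noc2l and 0.093 for Ubtf, but -0.82 for Rrp1b and -0.61 for Mybbp1a. The log2 fold changes of large subunit assembly ran from -0.74 to -0.10 with a median of -0.45, and 0 of 9 had an unadjusted p under 0.05 in edgeR. Within it, Bop1, Pes1 and Wdr12 form the PeBoW complex, which the large subunit precursor needs. Pes1 had 128 and 202 CPM with IL-3, and 122 and 116 CPM without it, and Bop1 had 38.8 and 65.5 CPM against 42.6 and 33.8 CPM. The groups overlapped for Bop1 and Wdr12 (92.0 and 135 CPM against 113 and 98.2 CPM) and not for Pes1. The RNA helicases Ddx18 and Ddx21 did not overlap either, with Ddx21 at 124 and 127 CPM against 99.3 and 80.9 CPM, and Ddx18 at 65.8 and 87.5 CPM against 51.4 and 58.9 CPM. Abl1ko/IL3+ replicate 2 was the highest library for 8 of the 9 members.

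Noc2l, the most abundant member of this group (50.1 FPKM), is a partner of nucleolar assembly factors that also binds histones. Noc2l (ENSMUSG00000095567, chr4:156236010-156247616, plus strand) had 135 and 214 CPM with IL-3, and 182 and 127 CPM without it. Its groups overlapped, with a log2 fold change of -0.17 (adjusted p = 0.980, edgeR). Nop16 had 50.6 and 108 CPM against 84.6 and 57.2 CPM, and the methyltransferase Nop2 had 44.5 and 63.4 CPM against 56.5 and 41.3 CPM. Rrp1b was the exception in its pattern. Rrp1b (ENSMUSG00000058392, chr17:32036100-32062865, plus strand) had 66.8 and 59.98 CPM with IL-3, and 21.5 and 54.2 CPM without it, so that both values without IL-3 were below both values with it and Abl1ko/IL3- replicate 1 was far below the rest. The log2 fold change was -0.74 (standard error 0.52, adjusted p = 0.900, edgeR), and -0.22 without that library and -1.56 without Abl1ko/IL3- replicate 2.

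A list of 90 further ribosome biogenesis genes was tested in the same fit, and 0 of 90 had an adjusted p-value under 0.05 and 0 of 90 an unadjusted one (edgeR). Their log2 fold changes had a median of -0.016, with 42 above 0 and 48 below it. Both libraries without IL-3 were lower than both with it for 19 of the 90 genes and higher for 13, against 17.9% and 19.4% of all genes tested. In Abl1ko/IL3+ replicate 2, 65 of the 90 were higher than in replicate 1, against 48.2% of all genes tested. In Abl1ko/IL3- replicate 2, 77 of the 90 were lower than in replicate 1, against 49% of all genes tested. Nearest to the threshold were Rrp36, a small subunit factor with 23.3 and 30.4 CPM against 14.7 and 15.4 CPM (log2 fold change -0.83, adjusted p = 0.854, edgeR), and Imp4, a processome protein, with 61.4 and 54.8 CPM against 33.0 and 39.5 CPM (log2 fold change -0.68, adjusted p = 0.855, edgeR). Both were chosen for their p-values after these were seen.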

How the data were processed

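Total RNA without ribosomal RNA was sequenced by the authors (Illumina HiSeq), with Rsubread for alignment to GRCm38 and featureCounts for counting. The deposited counts are whole numbers per gene, used here as raw counts, though some rows of 1 count have FPKM values that imply less than 1 read, and the deposited FPKM values were made by the authors with a tool not given in the sources used here. The submitters' processing notes also name STAR and Cuffdiff, with no role. Versions and the strand setting are not given in the sources used here. The members and lists were chosen with earlier results of these data known.

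Counts of 4 libraries were fitted with edgeR 4.0.16 in R 4.3.3 (filterByExpr, TMM, quasi-likelihood F test, two-sided, Benjamini-Hochberg adjustment over 16535 genes, threshold 0.05). Standard errors come from the fold change and the F statistic, and 95% intervals from its degrees of freedom. The steps were tested on simulated data with changes larger than any fitted for a member, so that test does not bear on changes of the members' size. Alternatives were DESeq2 1.42.0, library size only, no filter, 10 counts in every library, the replicate number as a block, limma 3.58.1 on log2(FPKM + 1) and log2(FPKM + 0.1), leaving out each library, and, added after seeing the data, crossed pairs. Counts differed beyond sampling noise between any pair of libraries (chi-square per degree of freedom of 265 or more over genes), so each counted as 1 sample. Exon lengths and biotypes come from GENCODE M21, and spans of 14 members overlap a protein-coding gene on the other strand. Members named in full were, by rule, the most abundant of each role by FPKM, any with an unadjusted p under 0.05, and the 3 largest rises and 3 largest falls, and the 2 genes of the further list were named after their values were seen. Marker sums cover the genes used here, 5 of 9 listed for pre-B cells, 3 of 5 for T cells and every listed gene otherwise, and 2 further marker genes are not reported here. The marker lists for macrophages, T cells and fibroblasts summed to 59.9 to 331, 0.515 to 2.88 and 1.88 to 4.60 CPM.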

Additional observations from a re-analysis of the deposited data

How the results depend on the processing

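The number of members past the adjusted threshold was 0 under every alternative that was run, including each left-out library. Over all genes the number was 0 in edgeR and 271 with DESeq2, and it ran from 0 to 22 when a library was left out. The number of members at an unadjusted p under 0.05 ran from 0 to 4 in those fits, in which the lone library of a group is assumed to vary like the other group's. It was 2 of 40 without Abl1ko/IL3+ replicate 1 (Mybbp1a and Pes1, both lower, against 15% of all genes tested) and 4 of 40 without Abl1ko/IL3+ replicate 2 (Nhp2, Nop10 and Rrp12 higher and Tsr1 lower, against 16.9%). The median log2 fold change of the members ran from -0.40 to 0.14, and became 0.14 without Abl1ko/IL3+ replicate 2, with 24 members higher. That of the other 90 genes ran from -0.15 to 0.19, the latter without the same library.

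With the replicate number as a block, 0 members and 0 genes were called, and the log2 fold changes of Fbl and Wdr43 reversed to 0.016 and -0.0029. Deviations of same-numbered libraries had a correlation of -0.22, so the pairs were also crossed, with 0 members and 0 genes called and values of 0.016 and -0.0029. Either pairing is balanced over the groups, so nearly equal log2 fold changes were fixed by the design and are not a further check. With limma on FPKM the value for Fbl was 0.029 (pseudocount 1) and 0.034 (pseudocount 0.1). Without single libraries the log2 fold change ran from -0.62 to 0.30 for Polr1c, from -0.39 to 0.17 for Ubtf, from -0.023 to 0.78 for Gnl3, from -0.83 to 0.94 for Fbl, from -0.073 to 1.15 for Nop56, from -0.34 to 1.45 for Nop10, from -0.20 to 0.20 for Wdr43 and from -0.46 to 0.20 for Noc2l. Of 168 single-gene values, 149 kept their direction and 19 reversed, and the cause was not tested.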

Other observations

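Several members carry snoRNAs in their introns, and the table lists them as rows of their own. Within the spans of 7 members (Taf1d, Gnl3, Ncl, Nop56, Nop58, Wdr43 and Tsr1), 26 snoRNA rows lay on the same strand, and 18 of them stayed under 10 counts in every library. Their sums were 113 and 248 counts in the Abl1ko/IL3+ libraries against 344 and 231 in the Abl1ko/IL3- libraries. The row with the highest count, Gm22579 inside Taf1d, carried most of the differences between these sums. Gm22579 had 2 and 150 counts in Abl1ko/IL3+ against 259 and 116 in Abl1ko/IL3- libraries, while Taf1d itself ranged only from 61.6 to 83.4 CPM.

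Of the 26 snoRNA rows, 7 held exactly 1 count in all 4 libraries, among them Snora75 inside Ncl and Snord69 and Snord19 inside Gnl3. Among all rows, 150 of 23756 rows held exactly 1 count in every library, and 49 of the 335 snoRNA rows did. For the 7 rows, the deposited FPKM, multiplied by exon length and library total, gave between 0.0026 and 0.81 reads, with a median of 0.024, where the table lists 1 count. For the 40 members the same product was 0.871 to 0.890 of the deposited count. How a count of 1 arose in these rows was not tested.

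A row annotated as a Nop56 pseudogene on chromosome 19 (AC122861) had 128 and 889 counts in Abl1ko/IL3+ against 1022 and 618 in Abl1ko/IL3- libraries, in the same order of libraries as Nop56, which had 4723 and 8674 against 10190 and 6419 counts.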
